A study of Homo sapiens with 30 samples.

Results

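Open chromatin at 10 imprinted genes was described in human H1 embryonic stem cells and their neural derivatives: SNURF, NDN, MAGEL2, DLK1, MEG3, H19, IGF2, PEG3, PEG10 and MEST. A locus was taken as the RefSeq gene body in GRCh38 with 50 kb on each side. Peaks of all lists were joined into regions where they shared at least 1 bp, and a region was called open in every list that had a peak in it. The 10 windows held 221 distinct regions of 493444 in the series. Of these, 12 lay in 2 windows, because NDN and MAGEL2, and DLK1 and MEG3, are neighbours. The set was selected on measured values: SNURF was chosen by its count of regions open in anterior and closed in posterior neural ectoderm, so that difference is given as a description.

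The series comprises 30 OmniATAC-seq libraries of wild-type H1 cells, with 3 numbered replicates in each of 10 groups, and 1 list of peak positions per group. Pluripotent cells (hPSC) stand for day 0. Definitive ectoderm (DE) of day 1 had been exposed to A8301, Trametinib, C59 and LDN193189. On day 2, anterior neural ectoderm (aNE) came from DE in A8301, LDN193189, C59 and Thiazovivin. Posterior neural ectoderm (pNE) came from DE in A8301, LDN193189, XAV939, FGF2, Thiazovivin and 50 nM TTNPB, a retinoic acid receptor agonist. Telencephalon, midbrain or hindbrain medium then gave aNE_T, aNE_M and aNE_H, or pNE_T, pNE_M and pNE_H, on day 4. The make-up of the day 4 media is not given in full in the sources used here. All groups share the H1 line, so every value below comes from a single genetic background.

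Imprinted genes are transcribed from only the maternal or only the paternal chromosome, under the control of stretches of DNA that are methylated in the egg or in the sperm. SNURF, NDN, MAGEL2, PEG3, PEG10, MEST, DLK1 and IGF2 are known as paternally expressed genes, and MEG3 and H19 as maternally expressed long non-coding RNAs. Several of them regulate growth or neuronal function, and loss of the paternal SNURF region on chromosome 15 is a known cause of Prader-Willi syndrome. ATAC-seq marks DNA that the Tn5 transposase can reach, and peaks of the sort analysed here do not tell the parental chromosomes apart.

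The loci differed in whether their start sites lay in peaks, so the 250 bases before them are shown for genes matched in the RefSeq promoter table (GRCh38.p14). Matches were found for 6 of the 10 members. Each sequence runs 5′ to 3′ on the strand of the gene. Capitals mark matches, on either strand, to TGCCGC (core of the ZFP57 motif), ATGGCGG (YY1 core), AGGGGGC (CTCF core) or GCATGCGC (NRF1).
SNURF: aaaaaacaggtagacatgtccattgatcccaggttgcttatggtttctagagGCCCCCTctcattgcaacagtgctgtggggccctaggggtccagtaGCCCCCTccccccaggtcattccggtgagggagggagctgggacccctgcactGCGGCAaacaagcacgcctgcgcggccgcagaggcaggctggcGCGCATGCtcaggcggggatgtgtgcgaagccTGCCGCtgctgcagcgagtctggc
NDN: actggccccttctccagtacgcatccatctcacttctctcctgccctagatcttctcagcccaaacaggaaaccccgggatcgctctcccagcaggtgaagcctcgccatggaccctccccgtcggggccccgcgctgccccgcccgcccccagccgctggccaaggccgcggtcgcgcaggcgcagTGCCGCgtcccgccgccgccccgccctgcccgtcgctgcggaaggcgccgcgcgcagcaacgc
MAGEL2: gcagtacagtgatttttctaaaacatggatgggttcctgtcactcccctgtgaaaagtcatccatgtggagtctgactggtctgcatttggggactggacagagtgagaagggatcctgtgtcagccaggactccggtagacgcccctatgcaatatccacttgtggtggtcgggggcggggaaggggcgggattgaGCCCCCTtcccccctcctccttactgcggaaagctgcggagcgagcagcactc
MEST: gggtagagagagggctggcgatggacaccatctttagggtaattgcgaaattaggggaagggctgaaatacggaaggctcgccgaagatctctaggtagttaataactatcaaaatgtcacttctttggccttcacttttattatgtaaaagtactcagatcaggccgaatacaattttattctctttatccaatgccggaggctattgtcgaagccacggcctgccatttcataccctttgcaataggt
MEG3: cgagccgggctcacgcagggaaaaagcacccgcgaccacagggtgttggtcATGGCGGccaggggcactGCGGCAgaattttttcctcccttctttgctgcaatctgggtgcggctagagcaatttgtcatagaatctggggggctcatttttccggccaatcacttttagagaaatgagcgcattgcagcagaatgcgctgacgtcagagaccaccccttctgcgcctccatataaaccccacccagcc
H19: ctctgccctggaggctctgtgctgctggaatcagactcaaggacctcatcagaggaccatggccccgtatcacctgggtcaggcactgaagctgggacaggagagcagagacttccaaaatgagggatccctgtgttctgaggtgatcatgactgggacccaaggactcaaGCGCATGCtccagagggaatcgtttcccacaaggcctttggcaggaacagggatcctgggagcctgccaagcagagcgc
They lie, in the same order, at chr15:24954737-24954986 (plus strand), chr15:23687306-23687555 (minus), chr15:23647868-23648117 (minus), chr7:130485925-130486174 (plus), chr14:100825858-100826107 (plus) and chr11:2001267-2001516 (minus). MEST and MEG3 have several annotated starts, and the first of each is shown.

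The starts of SNURF, NDN, MAGEL2 and MEST, in the table's windows that run from 250 bases before to 50 after the start, lay in regions open in all 10 lists. The starts of MEG3 and H19 overlapped no peak of any list. Across 34943 promoter windows of the table, 57.0% overlapped a region open in all 10 lists and 30.8% overlapped no peak, so 4 and 2 of 6 genes are near the background. Of the 4 members without a matched start, DLK1 and PEG10 had a region open in all 10 lists over the end with the lower coordinate. PEG3 had such a region over the end with the higher coordinate. IGF2 had none over either end in all 10 lists, and its lower end lay in a region open in 7 lists. A region open in all 10 lists, 2150089 to 2151187, lay within 1 kb of its higher end without covering it.

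The number of CpG dinucleotides did not sort the open starts from the others. The 250 bases shown hold 30 CpG in NDN, 12 in SNURF, 9 in MEST and 8 in MAGEL2, against 13 in MEG3 and 4 in H19. The median of all promoters was 11. SNURF holds 2 matches to TGCCGC, 2 to AGGGGGC and 1 to GCATGCGC. NDN and MEG3 each hold 1 match to TGCCGC, and MEG3 holds 1 to ATGGCGG. MAGEL2 holds 1 match to AGGGGGC. H19 holds 1 match to GCATGCGC, and the MEST sequence shown holds none of the 4 motifs. No matches to different motifs overlapped in the sequences shown. The 250 bases before the other 4 MEST starts do hold matches. The second start has 1 to TGCCGC and 2 to GCATGCGC, which overlap on opposite strands in a single stretch. The third has 1 to AGGGGGC and 1 to GCATGCGC. The fourth and the fifth, whose sequences overlap, each have 1 to ATGGCGG and 2 to AGGGGGC. At least 1 match occurred in 12.7% of all promoters for TGCCGC, 2.88% for ATGGCGG, 13.3% for AGGGGGC and 2.6% for GCATGCGC. TGCCGC was thus found before a start of SNURF, NDN and MEST, which lay in open regions, and of MEG3, which had no peak.

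SNURF encodes a small nuclear protein from the transcript that also encodes the splicing protein SNRPN, and its start lies within the imprinting centre of the region. The gene spans chromosome 15 from 24954987 to 24978723, and its window held 26 regions. Open regions numbered 16 for hPSC, 17 for DE, 14 for aNE and 5 for pNE. Among day 4 lists, aNE_T had 9, aNE_M 6, aNE_H 4, pNE_T 3, pNE_M 6 and pNE_H 6. The lists of days 0 and 1 and aNE were thus high, aNE_T was intermediate, and pNE and the other day 4 lists were low.

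The lists differ in length, so the bases in peaks of a window were also given per 1000000 bases in peaks of the list, called scaled open bases here. At SNURF this value was 71.0 for hPSC, 60.7 for DE, 63.9 for aNE and 31.0 for pNE. Among day 4 lists, aNE_T had 41.1, aNE_M 27.9, aNE_H 24.6, pNE_T 16.5, pNE_M 34.5 and pNE_H 19.3. Again hPSC, DE and aNE were high and aNE_T came next. With 1 list per group these values have no replicate error and were not tested, and the ranges of aNE-derived and pNE-derived day 4 lists overlapped.

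**Figure D1:**
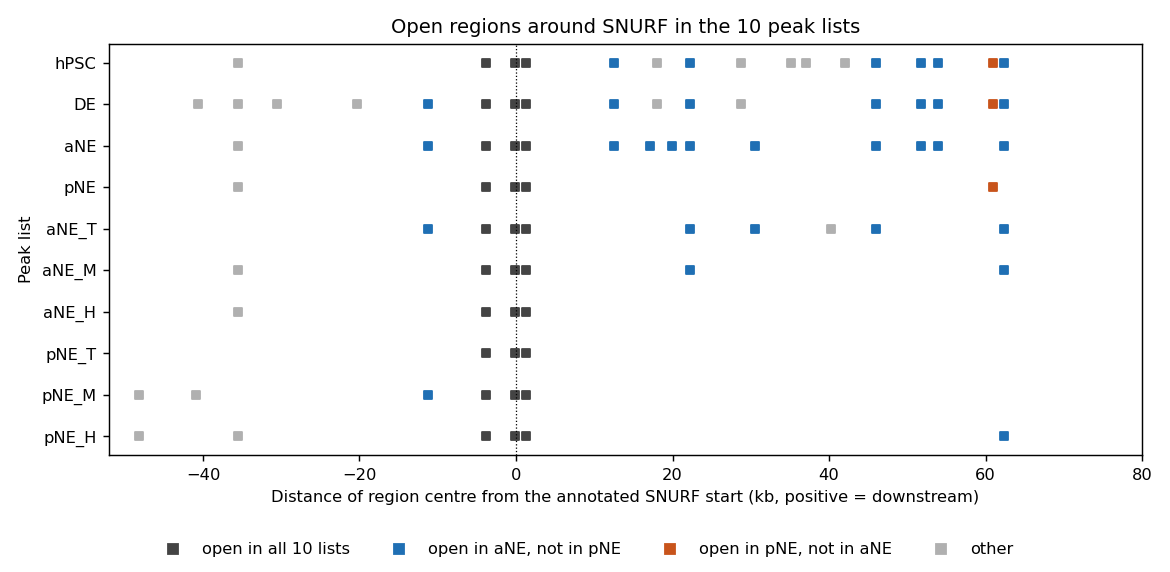
Open regions in the SNURF window, with the distance of each region's centre from the annotated start in kb on the x axis and the 10 peak lists in rows. Squares mark open regions and are not drawn to width. The 3 regions open in all lists sit at the start, while the regions further downstream are open mainly in hPSC, DE, aNE and aNE_T.

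The 3 regions open in all 10 lists lay together at the SNURF start. The region over the start, 24954672 to 24955148, covered between 254 bp in DE and 477 bp in pNE_T. A wider region just inside the gene, 24955737 to 24956934, covered between 671 bp in aNE and 1165 bp in pNE_H. The third, 24950691 to 24951655, was centred at -3.8 kb from the start inside SNRPN. It was widest in hPSC at 955 bp and narrowest in pNE_T at 196 bp, with aNE at 874 bp and pNE at 702 bp. The region over the start went the other way, with less in hPSC (274 bp) and DE than in any later list.

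Of the 15 regions open in aNE or pNE at SNURF, 10 had a peak in aNE but none in pNE (called aNE-only here, whatever the other lists show), and 1 was the reverse (pNE-only). Over the genome, 12.4% of regions open in either list were aNE-only and 28.5% were pNE-only. This contrast chose the locus, so nothing is read from it. The aNE list is the shortest, with 167792 peaks on the main chromosomes against 206811 in pNE. With every list reduced to its widest 167792 peaks the SNURF counts were again 10 and 1. They were 5 and 0 with 10 kb on each side of the gene, and 3 aNE-only regions were left among the wider 50% of the peaks of each list. Peaks in these regions were narrow, from 126 to 484 bp in aNE with a median of 215 bp, close to the median of 187 bp over all aNE-only regions. The regions shared with pNE across the genome had a median of 389 bp in aNE.

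The aNE-only regions at SNURF differed in their history. Those from 24967354 to 24967699 inside SNURF, from 25006649 to 25006920 and from 25008723 to 25008993 were open in hPSC, DE and aNE and in no other list. Those from 24971968 to 24972139 and from 24974736 to 24974942, both inside SNURF, were open in aNE alone, with 172 and 207 bp. The region from 24985301 to 24985675, over the non-coding gene PWAR5, was open in aNE and aNE_T. The region from 25000852 to 25001160 was open in hPSC, DE, aNE and aNE_T. The region from 24976910 to 24977555, near the end of SNURF, was open in hPSC, DE, aNE, aNE_T and aNE_M. The region from 25016932 to 25017663 was open in those lists and in pNE_H. It was the widest of the group in aNE at 484 bp and reached 619 bp in aNE_T. The region from 24943425 to 24943876, the only aNE-only region before the start, was open in DE, aNE, aNE_T and pNE_M. The pNE-only region ran from 25015620 to 25016178 beside the widest aNE-only region. It was open in hPSC, DE and pNE, where it covered 463 bp.

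Of these 10 regions, 6 were open in hPSC and 7 in DE. The shares over all aNE-only regions of the genome were 45.0% and 70.8%, so the count in DE was near the background. At SNURF 10 regions were open in hPSC, DE and aNE together, and 6 of them were closed in pNE, against 9.02% of such regions over the genome. Since open in aNE and closed in pNE is the contrast that chose the locus, nothing is read from that difference. On day 4, 5 of the 10 were open in aNE_T, 2 in aNE_M and 0 in aNE_H, where the genome-wide shares were 49.2%, 32.1% and 20.1%. In the pNE-derived lists 0 were open in pNE_T, 1 in pNE_M and 1 in pNE_H, beside 26.0%, 19.3% and 34.2% over the genome. With so few regions these counts were read only as a description.

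The regions were also followed from days 0 and 1. At SNURF 13 regions were open in both hPSC and DE. Of these 10 were open in aNE, 5 in pNE, 6 in aNE_T, 6 in aNE_M, 4 in aNE_H, 3 in pNE_T, 3 in pNE_M and 5 in pNE_H. Over the genome the share of such regions that were open lay at 75.3% in aNE, 77.1% in pNE, 76.6% in aNE_T, 76.0% in aNE_M, 71.5% in aNE_H, 68.4% in pNE_T, 67.6% in pNE_M and 77.8% in pNE_H. SNURF, at 76.9%, was close to the genome in aNE and lay between 23.1% and 46.2% in pNE and the day 4 lists. The other 9 loci together had 74 such regions and kept between 79.7% in pNE_M and 90.5% in pNE_H. Which regions were open in aNE and pNE had a part in the choice of the locus, and the percentages are given as a description.

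**Figure D2:**
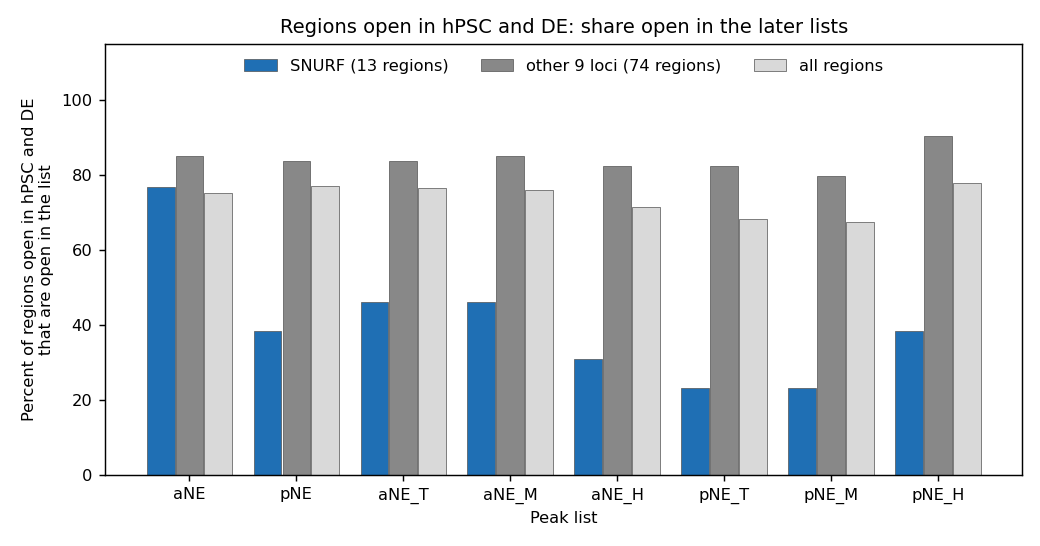
Percent of the regions open in both hPSC and DE that were open in each later list, for the SNURF window (13 regions), the other 9 windows together (74 regions) and all regions of the genome. SNURF is close to the others in aNE at 76.9% and below them in pNE and in every day 4 list.

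Most of the regions closed in pNE lay downstream of the start, as did 17 of all 26 regions of the window. A limit of 5 kb after the start, chosen after the values were seen, left 16 of the 26 regions. Of these 12 were open in hPSC, 9 in DE and 9 in aNE, against 1 in pNE. On day 4, 5 were open in aNE_T, 2 in aNE_M, 1 in pNE_H and 0 in aNE_H, pNE_T and pNE_M. The calls in aNE and pNE chose the locus, so nothing is read from 9 against 1. Before the start, the region from 24906444 to 24907114 at the far edge of the window was open only in pNE_M over 671 bp and in pNE_H over 202 bp. Those from 24914332 to 24914452, from 24924292 to 24924516 and from 24934663 to 24934779 were open in DE alone. All of these were closed in pNE too.

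The long non-coding RNA SNHG14 starts upstream of SNURF and runs through it towards UBE3A, the ubiquitin ligase gene of Angelman syndrome. It hosts the small nucleolar RNAs of the SNORD116 and SNORD115 clusters. From the SNURF start to the SNHG14 end at 25419462, a span of 464 kb, 66 regions were found, and hPSC had 39 of them open, DE 39, aNE 28 and pNE 13. The day 4 numbers were 27 in aNE_T, 15 in aNE_M, 10 in aNE_H, 9 in pNE_T, 13 in pNE_M and 17 in pNE_H. The span takes in regions of the SNURF window, so its aNE and pNE counts partly reuse the contrast that chose the locus. Beyond the SNURF window to that end, 8 regions were aNE-only and 1 was pNE-only among 18 open in either list. The shares over the genome were 12.4% and 28.5%.

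In steps of 100 kb, aNE and pNE differed most in the first 200 kb after the SNURF start. From 0 to 100 kb aNE had 13 open regions and pNE 3. That step takes in the part of the SNURF window after the start, so its difference partly reuses the contrast that chose the locus. From 100 to 200 kb, which holds 28 annotated SNORD116 copies and the non-coding gene IPW, aNE had 8 and pNE 2. In the next 100 kb, with 44 annotated SNORD115 copies, no list had more than 2 open regions. From 300 to 400 kb, at the end of UBE3A, aNE and pNE had 5 each. In the 100 kb before the start aNE had 11 and pNE 10.

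**Figure D3:**
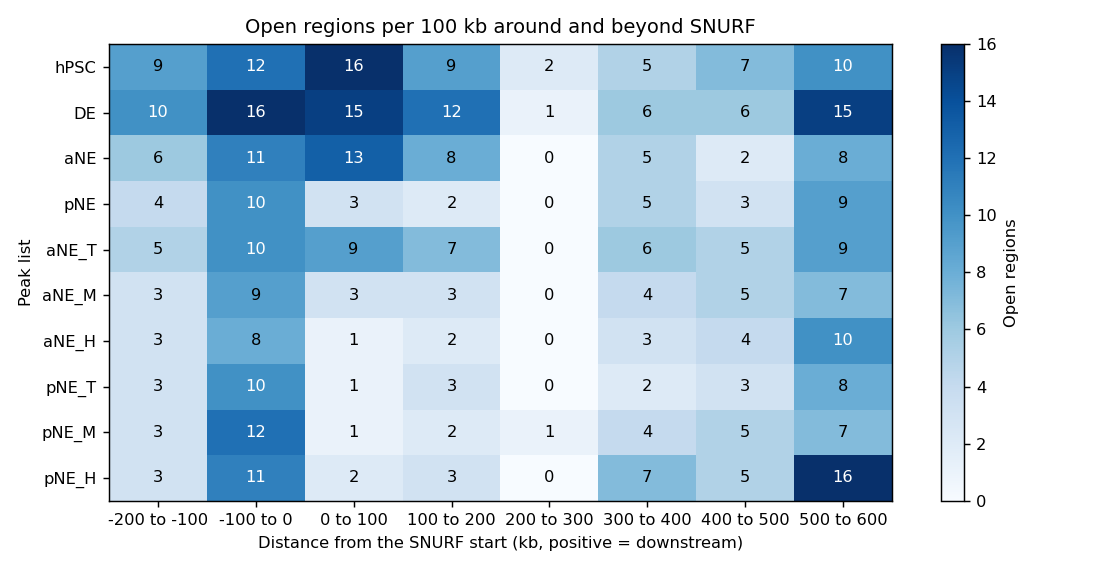
Number of open regions in each 100 kb step from 200 kb before to 600 kb after the SNURF start (x axis) in the 10 peak lists (rows). The lists hPSC, DE, aNE and aNE_T have 9 to 16 open regions in the first 100 kb after the start, and the other lists have 1 to 3. That step takes in regions of the SNURF window, which was chosen by its aNE and pNE calls.

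Likeness to SNURF was measured as Pearson's r of scaled open bases over the 10 lists, among 18473 protein-coding windows with at least 10 regions and more than 1 Mb away. The 5 closest were RAD9B (r of 0.98), TTLL2 (0.978), MEAF6 (0.978), SLURP2 (0.975) and SMIM10 (0.974). RAD9B, which encodes a subunit of a DNA damage clamp, had 79.4 scaled open bases in aNE and 62.5 in pNE, a smaller gap than at SNURF. An r above 0.9 was reached by 430 windows, and the lists share their total of open bases as a common scale, so the order is a description only.

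NDN and MAGEL2 lie on chromosome 15 more than 1 Mb before SNURF, and both encode proteins of the MAGE family that act in neurons. The NDN gene (23685400 to 23687305) lay in a window with 9 regions and MAGEL2 (23643549 to 23647867) in a window with 11. The NDN start region, 23686272 to 23687547, and the MAGEL2 start region, 23647407 to 23648578, were open in all 10 lists. That of NDN was the widest region open in all 10 lists in both windows. NDN had 7 open regions in hPSC, 8 in DE, 7 in aNE and 5 in pNE, and on day 4 from 5 in pNE_M to 9 in pNE_T. MAGEL2 had 7, 9, 7 and 5 in the same early lists, and from 5 in aNE_H to 8 in aNE_T, pNE_T and pNE_H. Each window held 2 aNE-only regions and 0 pNE-only regions, and these were the same regions in both. They ran from 23645396 to 23645911 inside MAGEL2, closed in pNE and pNE_M, and from 23648982 to 23649167, open in hPSC, DE, aNE, pNE_T and pNE_H. All 7 regions of the NDN window that were open in hPSC and DE were open in aNE, pNE_T and pNE_H, and 5 were open in pNE and pNE_M. In scaled open bases NDN ranged from 29.5 in pNE_H to 47.1 in DE, and MAGEL2 from 29.9 in pNE_H to 52.0 in DE.

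PEG3, a zinc finger gene on chromosome 19 (56810082 to 56840726), had the fewest regions. Its window held 2, from 56837536 to 56838544 and from 56838692 to 56840890, the latter over the higher end of the gene, and both were open in all 10 lists. At 1.53 regions per 100 kb this was below the median of 19.7 for protein-coding windows, and 0.714% of those windows were as low. The bases in peaks came to 2005 for hPSC, 1749 for DE, 2399 for aNE and 2179 for pNE. Among day 4 lists aNE_T had 2448, aNE_M 2326, aNE_H 2640, pNE_T 2208, pNE_M 1701 and pNE_H 2506. The lists thus differed in the bases covered and not in which regions were open, and these bases lay in 2 peaks in aNE_H, 4 in hPSC and pNE, and 3 in the other lists.

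PEG10, a gene derived from a retrotransposon on chromosome 7 (94656325 to 94669695), had 19 regions. The region from 94655231 to 94657092 covered its lower end and the neighbouring end of SGCE, which encodes a sarcoglycan, and was open in all 10 lists. So was the widest other region, 94657190 to 94658663 inside PEG10. From 8 to 12 regions were open in each list, with 8 in aNE, 10 in pNE and 12 in pNE_H. None was aNE-only and 2 were pNE-only.

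MEST, which encodes a hydrolase-like protein (chromosome 7, 130486175 to 130506465), had 23 regions. Its 5 annotated starts fell in regions from 130485858 to 130486998 and from 130490853 to 130492628, both open in all 10 lists. From 6 regions in aNE and aNE_H to 12 in DE, pNE_T and pNE_H were open, with 7 in pNE. It had 2 aNE-only and 3 pNE-only regions. Away from the starts, the region from 130515293 to 130516018 inside COPG2 was open in DE, pNE and every day 4 list but pNE_H.

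H19 and IGF2 are neighbours on chromosome 11 that share enhancers, and the control region between them binds CTCF on the maternal chromosome. H19 (1995176 to 2001266) had 27 regions, from 10 open in hPSC, aNE and aNE_T to 19 in pNE_H, with 13 in pNE. The gene body itself held regions open in at most 2 lists, pNE_H in each case. Upstream, a region from 2004247 to 2005030, centred at -3.4 kb from the start, was open in hPSC, DE, aNE, pNE and aNE_T and closed in the other 5 lists. That region was singled out after its values were seen. The widest region open in all 10 lists, 1968435 to 1970012, lay inside the neighbouring gene MRPL23.

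H19 was the only locus whose 3 aNE-derived day 4 lists all lay below the 3 pNE-derived lists in scaled open bases. Among the former aNE_T had 56.5, aNE_M 62.9 and aNE_H 65.0, and among the latter pNE_T had 74.2, pNE_M 84.1 and pNE_H 75.0. Such an order held in 5.74% of protein-coding windows. The opposite order held at PEG3, with 25.5 to 31.4 against 19.4 to 24.7, and in 27.4% of protein-coding windows. At the other 8 loci these ranges overlapped. The scaling divides pNE_H by 129 megabases in peaks, against 84.0 to 91.3 in the other day 4 lists. In unscaled bases the PEG3 ranges overlapped, with 2506 in pNE_H, 2448 in aNE_T and 2326 in aNE_M. At H19 the order held in unscaled bases, with at most 5736 in aNE-derived and at least 6637 in pNE-derived lists. With 100 kb on each side 0 loci were without overlap, and with 10 kb 5 were. Neither order was tested, since the 3 lists of a side come from different media and are not replicates.

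IGF2, which encodes insulin-like growth factor 2 (2129117 to 2149566), had the most regions open in all 10 lists, 15 of 35. Over the genome 16.5% of regions were open in all 10 lists. The widest of the 15, 2136807 to 2138238, lay inside IGF2. Between 16 regions in aNE and 26 in pNE_H were open, with 19 in pNE. Scaled open bases ranged from 108 in DE to 128 in pNE_T, a ratio of highest to lowest of 1.19, the smallest of the 10 loci. The same ratio was 4.29 at SNURF. In unscaled bases IGF2 ran from 8402 in aNE to 15166 in pNE_H, and MEST from 4351 to 6558 in the same lists. By that measure MEST had the smaller ratio, so the rank of IGF2 depends on the scaling. A region over the higher part of the IGF2 gene, 2148420 to 2149014, was open in pNE, aNE_M, aNE_H, pNE_T, pNE_M and pNE_H.

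DLK1 and MEG3 are neighbours on chromosome 14 with opposite parental expression. DLK1 (100726892 to 100738224) encodes a membrane protein related to Notch ligands. Its window held 39 regions, and hPSC had 12 of them open, DE 16, aNE 10 and pNE 15. On day 4, 17 were open in aNE_T and aNE_M, 10 in aNE_H, 17 in pNE_T, 16 in pNE_M and 22 in pNE_H. Of 18 regions open in either list 3 were aNE-only and 8 pNE-only, beside 12.4% and 28.5% of the regions open in either list over the genome. The pNE-only count of DLK1 was 5 in lists of equal size, 3 with 10 kb on each side, 3 where peaks had to cover 50% of a region and 2 among the wider 50% of peaks. Scaled open bases were highest in aNE_T at 111 and aNE_M at 99.7, and lowest in hPSC at 64.7 and aNE_H at 65.5. The region over its lower end, 100726597 to 100727382, and the widest region, 100708380 to 100709982, were open in all 10 lists. Inside the gene, the region from 100732005 to 100732959 was open in pNE, aNE_T and the 3 pNE-derived lists.

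MEG3 (100826108 to 100861026) had 42 regions, the most of the set. From 14 in pNE_M to 29 in pNE_H were open, with 16 in hPSC, 16 in DE, 15 in aNE and 16 in pNE. No peak covered the annotated starts, and the only region within 1 kb of the lower end of the gene was open in pNE_T alone. A region from 100823926 to 100824520, centred at -1.9 kb, was open in all 10 lists. The gene body was open elsewhere. The widest region of the window, 100839155 to 100841307, lay inside MEG3 and was open in all 10 lists, as were those from 100830039 to 100831662 and from 100851073 to 100851777. Of the 12 microRNA hairpins annotated in the windows, 9 lay in the MEG3 window and 1 of all, MIR337, overlapped a region, open in pNE_T only.

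**Figure D4:**
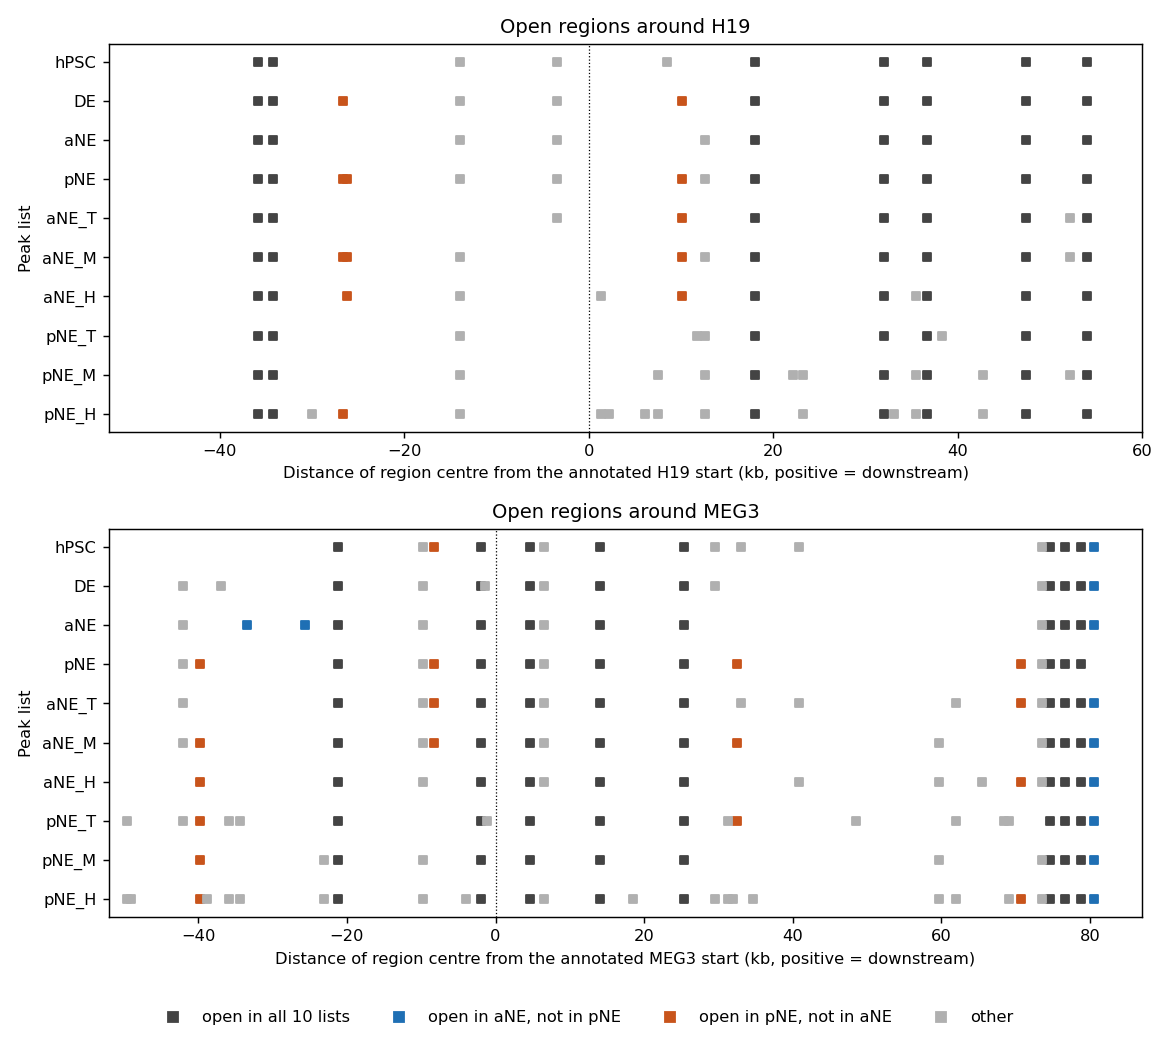
Open regions in the H19 and MEG3 windows by distance of the region centre from the annotated start in kb (x axis) in the 10 peak lists (rows); squares are not drawn to width. No square lies on the dotted start line in either panel, and the H19 region at -3.4 kb is present in 5 lists.

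Across the 221 regions, 54 were open in all 10 lists, 70 in 1 list and 97 in 2 to 9. These made up 24.4% and 31.7% for the first groups, against 16.5% and 33.5% over the genome. Regions open in all lists had a median width of 964 bp, and those open in 1 list 173.5 bp. The 70 included 18 in pNE_H, which is the longest list, 13 in DE, 10 in pNE_T, 7 in hPSC, 7 in aNE and 0 in pNE. Without SNURF, the other 9 loci had 11 aNE-only and 23 pNE-only regions among 97 open in either list. Over the genome the shares were 12.4% and 28.5%, so these counts are near or below the background.

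**Figure D5:**
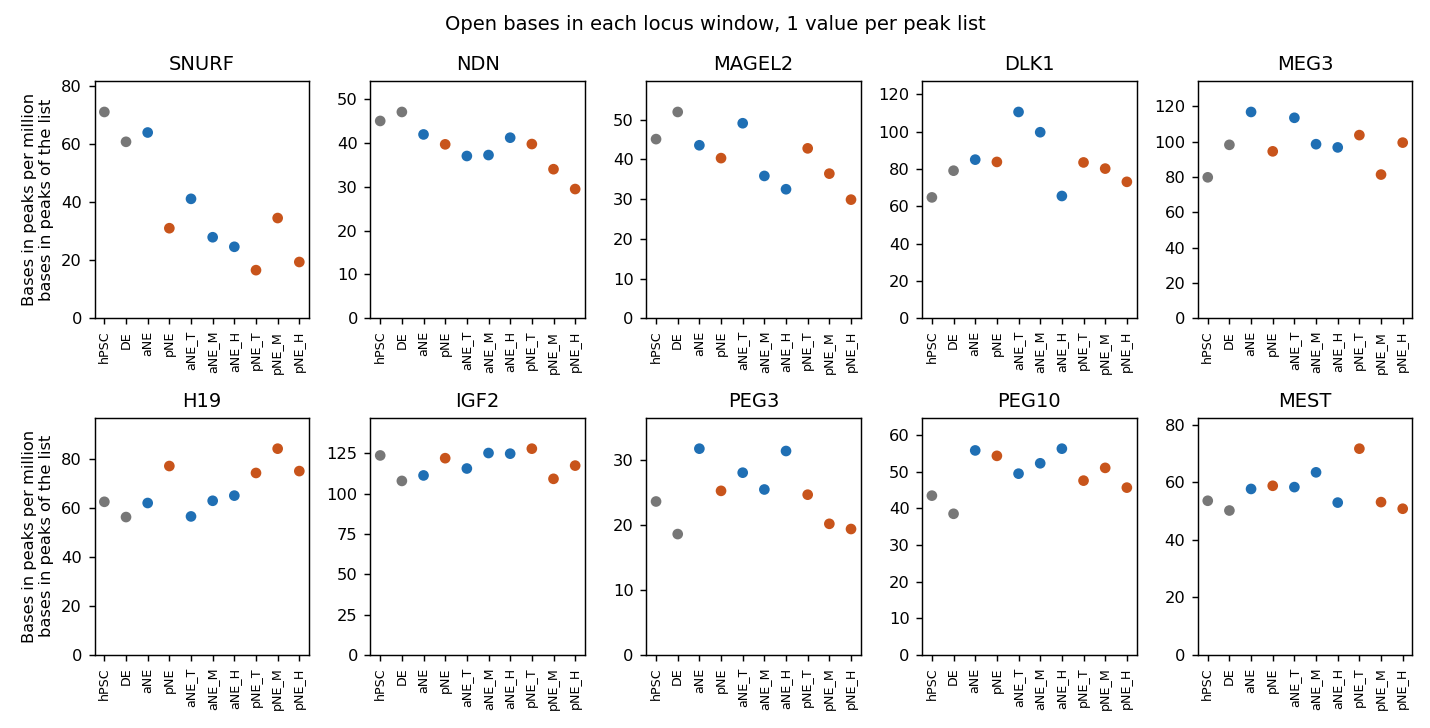
Bases in peaks in each locus window per 1000000 bases in peaks of the list (y axis, from 0) for the 10 peak lists (x axis), 1 point per list; grey marks hPSC and DE, blue aNE and its derivatives, orange pNE and its derivatives. SNURF has 60.7 to 71.0 in hPSC, DE and aNE and at most 41.1 elsewhere.

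A wider list of 50 other imprinted genes and their close neighbours was set beside the members. More pNE-only than aNE-only regions were found at 30 of them, against 59.6% of protein-coding windows, and more aNE-only regions at 8, against 21.6%. The 8 include SNRPN, SNHG14 and PWAR6, whose windows overlap that of SNURF and recount regions that chose it. For the 38 genes whose windows overlap no member's, the numbers were 25 and 5. In lists reduced to their widest 167792 peaks, which changes both the length of the lists and the width of the peaks kept, the numbers for all 50 were 13 and 22. The shares of protein-coding windows were not computed for the reduced lists, so 13 and 22 are not read as a result about imprinted genes. The cause was not tested. The median of aNE-only minus pNE-only regions was -1.5, and -1 over protein-coding windows. Among the 38 genes whose windows do not overlap a member's, the largest excess of aNE-only regions was at IPW, inside the SNHG14 span, with 6 and 0. BLCAP and NNAT, which share a locus on chromosome 20, followed with 5 and 2 each. At the other end KCNQ1 had 5 and 18, PPP1R9A had 2 and 14, and ATP10A had 1 and 12. In scaled open bases IPW had 18.5 for hPSC, 24.6 for DE, 21.9 for aNE and 5.01 for pNE. Its day 4 values overlapped between origins, with 16.8 for aNE_T, 8.31 for aNE_M, 5.5 for aNE_H, 9.39 for pNE_T, 3.66 for pNE_M and 7.92 for pNE_H.

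The lists held between 167792 peaks in aNE and 313095 in pNE_H on the main chromosomes, and read depth is unknown because the lists hold no counts. Fewer cells with an open region and less opening per cell cannot be told apart in such lists. The labelled populations were compared with their markers by scaled open bases. The windows of POU5F1, NANOG and ZFP42, genes of pluripotent cells, were all highest in hPSC, and POU5F1 had 67.2 there, 50.1 in aNE and 15.5 in pNE_H. Those of HOXB1, HOXB4 and HOXA3, genes of the posterior neural tube, were higher in all 3 pNE-derived than in all 3 aNE-derived day 4 lists. HOXB4 had 155 to 198 in the former and at most 134.5 in the latter. The hPSC list was also above all 3 aNE-derived lists, with 126 at HOXB1, 154 at HOXB4 and 193 at HOXA3. It was thus near pNE_H, which had 119.5, 155 and 187 in the same order. On day 2 the order in scaled open bases was the reverse of the labels for all 3. HOXB1 had 118 in aNE and 114 in pNE, HOXB4 had 148 and 137, and HOXA3 had 227 and 208. The pNE list holds 86.2 megabases in peaks and the aNE list 75.5. Before that scaling pNE therefore had more bases in peaks than aNE at all 3. Among the anterior genes OTX2 was higher in all 3 aNE-derived lists, while SIX3 and LHX2 overlapped and SIX3 was highest in pNE_T at 137. PAX6 and SOX1, genes of neural progenitors, were higher in aNE (118 and 142.5) and pNE (114.5 and 131) than in hPSC (95.6 and 126). On day 4 PAX6 stayed above its hPSC value in all 6 lists, while SOX1 lay above it only in aNE_T, at 129, and between 90.9 in pNE_H and 122 in pNE_M in the other 5. No marker window was without open bases in any list.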

How the data were processed

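Libraries of 50000 H1 cells each were sequenced by OmniATAC-seq, per the labels. The authors deposited 1 list of peak positions per group, without score or summit. The submitters' processing notes name Bowtie2, MACS2, bedtools, featureCounts, edgeR, deepTools and hg38. Versions, thresholds and the way in which replicates were combined are not given in the sources used here. A different threshold between lists would move every count. Each list was matched to the group whose name it carries. Between 3.84% and 6.31% of peaks lay outside the main chromosomes and were left out.

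Gene positions came from RefSeq (GRCh38.p14). It gives no exons, so positions are stated by gene only. A region at a window edge was counted whole. Named regions were the aNE-only and pNE-only regions at SNURF and, elsewhere, the start region and the widest region open in all lists; others were picked after their values were seen. The members and gene lists were chosen with earlier results of these data known. The lists hold no values per library, so no test was made. In 20 simulated sets with 12394 regions the code made 0 wrong open calls. Python 3.11.15, numpy 2.4.6, pandas 2.3.3 and matplotlib 3.10.9 were used.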

Additional observations from a re-analysis of the deposited data

Results flagged for a closer look

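The change from telencephalon to hindbrain medium had opposite signs in aNE-derived and pNE-derived lists at 5 of the 10 loci, in bases in peaks per 1000000 bases in peaks of the list. Each side is 1 list minus 1 list, so the difference was not tested, and 34.7% of protein-coding windows had opposite signs. The hindbrain minus telencephalon difference at SNURF was -16.51 in the aNE-derived and 2.81 in the pNE-derived lists. NDN had 4.18 and -10.27, IGF2 9.2 and -10.5, PEG3 3.34 and -5.29, and PEG10 6.82 and -1.91, in the same order. In scaled bases 4 of these 5 loci were thus lower in pNE_H than in pNE_T, and pNE_H is also the longest list. In unscaled bases the same 4 were higher in pNE_H than in pNE_T. The values were 3808 and 3555 at NDN, 15166 and 11440 at IGF2, 2506 and 2208 at PEG3, and 5897 and 4254 at PEG10. These 4 were also higher in aNE_H than in aNE_T, so their opposite signs held only after scaling. At SNURF the signs were opposite in unscaled bases too, with 3582 in aNE_T, 2065 in aNE_H, 1479 in pNE_T and 2499 in pNE_H. The part of list length in these differences was not tested.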

How the results depend on the processing

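The values describe lists and not libraries, so neither replicate error nor read depth limits can be given. Leaving out each replicate was not run for the same reason. No paired analysis was possible because the lists hold no value per library. In all 8 alternatives were run; leaving out pNE_H was chosen after seeing the data, and it moved none of the summary counts by over 1.5 times.

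With 10 kb on each side the windows held 89 regions, 27 of them open in every list. SNURF then had 5 aNE-only regions, 2 of them open in DE, and 0 pNE-only, the other 9 loci had 4 and 12, and 5 loci were without overlap on day 4. With 100 kb the windows held 337 regions, the other 9 loci had 18 aNE-only, and 0 loci were without overlap. With the wider 50% of each list there were 128 regions, 27 open in every list, 3 aNE-only at SNURF, all 3 open in DE, and 3 aNE-only and 15 pNE-only at the other 9 loci. With lists at the size of the smallest 1 locus was without overlap. Of the 50 other imprinted genes 22 then had more aNE-only and 13 more pNE-only regions, and the cause was not tested. Shares over all protein-coding windows were computed for the main setting only. The counts of loci and genes under the other settings thus have no background beside them and are given as a description. Requiring peaks to cover 50% of a region left 19 regions open in every list. Keeping 1 gene per group of overlapping windows left 32 of the 50 genes, 4 of them with more aNE-only regions. Merging within 200 bp moved none of these. At SNURF aNE-only regions outnumbered pNE-only regions under all 7 settings that were run there. That contrast chose the locus and the settings reuse the same lists, so nothing is read from it. Of 336 counts at single loci under these settings, 105 moved by over 1.5 times.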
